A study of Mus musculus with 6 samples.

Results

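The genes described here are 10 inflammatory cytokines and effectors, chosen by name from 55487 genes counted in each library. They are the cytokines Il1a, Il1b, Il18, Il6, Osm, Il12b and Tnf, and the effectors Nlrp3, Nos2 and Ptgs2. All 10 were found by symbol and all 10 passed the filter on low counts. RNA came from non-myocyte cells of C57BL/6 mouse hearts, enriched with magnetic beads against Cd11b, an integrin subunit of myeloid cells. The 3 control pools (WT; source Egfr f/f) carried the floxed Egfr gene, and the 3 knockout pools (KO; source Egfr mKO) were labelled EGFR -/- in myeloid cells only. Each library came from 1 pool of 5 to 6 hearts, so the pool was the replicate and p-values measure the spread between pools. The sources used here do not give the driver of the deletion, the age of the mice or any treatment.

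Macrophages and neutrophils release these cytokines after sensing microbial products or damaged cells. Pattern-recognition receptors act through NF-kB and AP-1 to switch on Il1a, Il1b, Tnf, Il6, Il12b and Nlrp3. The Nlrp3 protein then assembles an inflammasome in which caspase-1 cuts the precursors of IL-1 beta and IL-18 into their active forms, so an RNA level alone does not give the amount of active cytokine. Nos2 makes nitric oxide and Ptgs2 (cyclooxygenase 2) makes prostaglandin precursors. Several of these genes are also switched on quickly in cells that are handled and digested.

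Between 17780707 and 27485129 reads per library were assigned to genes. Egfr was at 47.5 ± 6.29 CPM (read counts scaled to a common library size with TMM factors) in WT and 17.3 ± 1.29 CPM in KO. Lyz2, the lysozyme gene of myeloid cells, was at 0.370% of its WT mean in KO. The KO pools thus differed from WT in both Egfr and Lyz2, and the parts of these in other differences cannot be told apart. Itgam, which encodes Cd11b, was at 84.4 to 176 CPM and was present in every pool. The summed level of 13 resident macrophage markers was 8125 to 15530 CPM, and that of 13 neutrophil markers 663 to 3053 CPM. Markers of other heart cells were present too, with 3971 to 14980 CPM for 11 fibroblast genes and 1370 to 4166 CPM for 11 endothelial genes. The median log2 fold changes of these 2 lists were -1.11 and -1.08. EdgeR called 0 genes of either list, but 7 of 11 fibroblast and 11 of 11 endothelial genes without the filter on low counts (2.22% of all genes lower) and 11 and 9 without WT pool 1 (5.97% lower). DESeq2 called 8 and 11 (4.39% lower). The pools thus held RNA of cells other than myeloid cells. WT pool 1 stood apart with 1878 CPM of erythroid markers against 36.2 to 142 CPM in the other pools. WT pool 2 had the most of 8 T cell markers, with 617 CPM against 30.3 to 252 CPM in the other pools. In bulk samples, fewer cells of a type and less RNA per cell cannot be told apart.

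None of the 10 genes was called different between genotypes in edgeR's quasi-likelihood test, in which 0.0127% of the 15707 genes tested passed an adjusted p of 0.05. At an unadjusted p below 0.05 there were 2 of the 10, against 15.3% of all genes: Il12b on the higher side (4.77% of all genes) and Nos2 on the lower side (10.6%). For the same 2 genes the genotypes had no overlapping pools, against 19.7% of all genes, so 2 in 10 was at the background. Without WT pool 1, where 8.3% of all genes were called, 0 of the 10 passed in edgeR. Of the log2 fold changes 5 were positive and 5 negative, with a median of 0.03 beside 0.0072 over all genes tested.

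The genes differed widely in level. On a per-length scale (TPM, which divides by exon length before scaling), Il1b was highest, with 1308 to 3487 TPM, and ranked between 28 and 87 among 55034 genes with a length. Tnf followed with 371 to 624 TPM, then Nlrp3 with 257 to 439 TPM. Osm (137 to 334 TPM), Ptgs2 (123 to 320 TPM) and Il6 (91.2 to 187 TPM) overlapped one another, and Il1a lay at 79.8 to 147 TPM. Il18 was lower, at 27.5 to 43.0 TPM. Nos2 (2.81 to 18.9 TPM) and Il12b (3.13 to 8.35 TPM) were lowest, and their order depended on the genotype: Nos2 was above Il12b in all 3 WT pools and below it in all 3 KO pools. Il1b was above Tnf, and Il18 above Nos2, with no overlap in either genotype. Tnf and Nlrp3 overlapped in range, although Tnf was higher in each of the 6 pools. Il1b alone made up 37.7% to 55.2% of the summed CPM of the 10 genes.

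**Figure D1:**
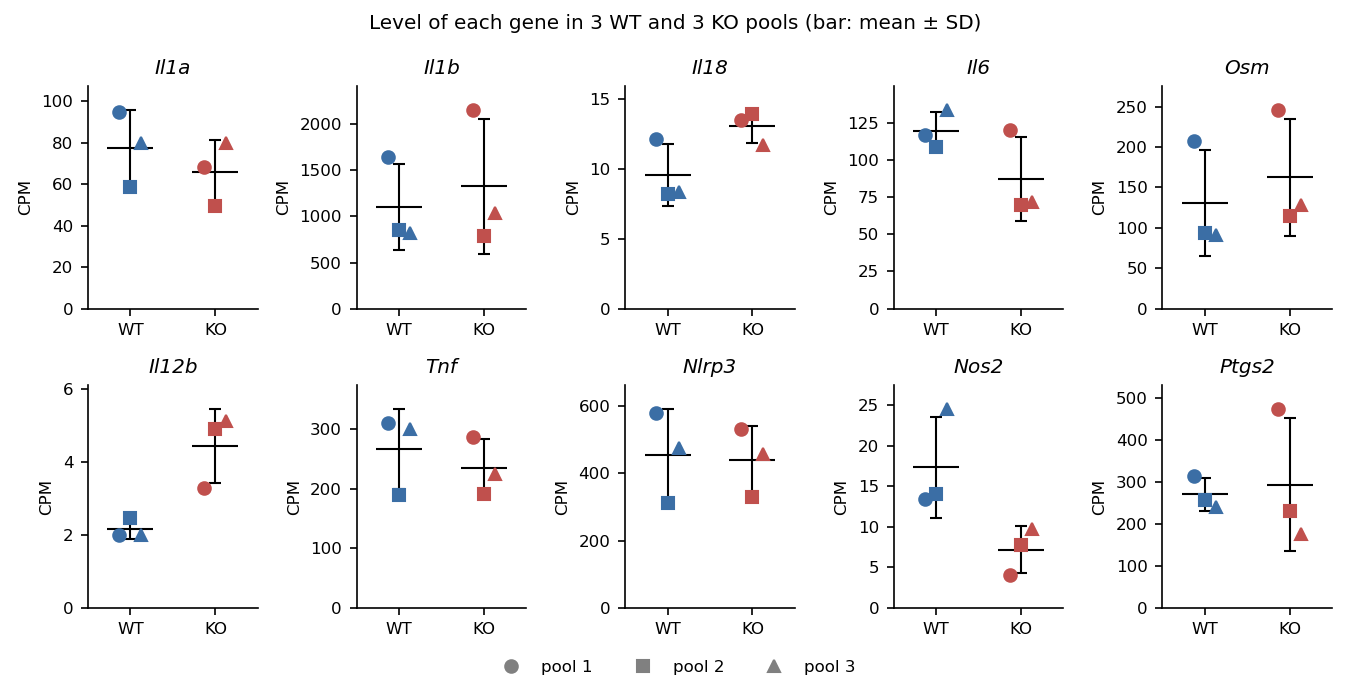
Level of each of the 10 genes in CPM (y axis from 0) in 3 WT and 3 KO pools, with marker shape giving the pool number and bars the mean and SD. The genotypes are separated only for Il12b and Nos2, while Il1b, Osm and Ptgs2 are highest in the pools numbered 1 of both genotypes.

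Promoters are shown for Il1b and Ptgs2, which were high in the same pools, and for Il6 and Il12b, the members with a promoter entry that differed most between genotypes in each direction. Each sequence is the 250 bases before the RefSeq start site on GRCm38.p6, 5′ to 3′ on the strand of the gene, with motif matches in capitals. The motifs searched on both strands were the kB consensus bound by NF-kB, TGANTCA bound by AP-1, TTGCNNAA bound by C/EBP factors, and TATAAA. No entry was found for Nos2 or Osm.
Il1b (chr2:129371140-129371389, minus strand): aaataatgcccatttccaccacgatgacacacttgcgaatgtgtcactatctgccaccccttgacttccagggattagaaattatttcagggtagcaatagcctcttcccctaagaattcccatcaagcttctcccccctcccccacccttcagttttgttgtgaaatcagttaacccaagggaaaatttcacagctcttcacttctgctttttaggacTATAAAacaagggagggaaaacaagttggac
Ptgs2 (chr1:150099781-150100030, plus strand): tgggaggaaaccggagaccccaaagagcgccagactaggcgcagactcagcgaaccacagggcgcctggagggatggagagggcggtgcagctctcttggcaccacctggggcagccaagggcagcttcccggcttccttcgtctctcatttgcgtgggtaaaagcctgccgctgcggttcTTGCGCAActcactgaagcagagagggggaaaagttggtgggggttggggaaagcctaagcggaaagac
Il6 (chr5:30012864-30013113, plus strand): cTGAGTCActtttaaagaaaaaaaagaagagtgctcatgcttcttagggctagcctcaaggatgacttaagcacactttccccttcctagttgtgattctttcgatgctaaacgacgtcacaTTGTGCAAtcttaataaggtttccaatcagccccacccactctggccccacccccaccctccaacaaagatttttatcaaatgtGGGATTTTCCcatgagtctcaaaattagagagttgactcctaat
Il12b (chr11:44399813-44400062, plus strand): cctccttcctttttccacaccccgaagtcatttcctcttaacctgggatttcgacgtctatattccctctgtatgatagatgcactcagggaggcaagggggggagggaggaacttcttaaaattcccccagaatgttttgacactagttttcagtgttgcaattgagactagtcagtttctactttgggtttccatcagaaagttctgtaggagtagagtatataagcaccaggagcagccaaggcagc
The Il6 window held a kB match at -44 to -35 from the start site, a C/EBP match at -128 to -121 and an AP-1 match at -249 to -243. Il1b held TATAAA at -31 to -26, and Ptgs2 a C/EBP match at -69 to -62 that reads on both strands. None of the 4 motifs was found in the Il12b window. Among 32851 promoter windows of the same length, 7.25% held the kB consensus, 6.75% TGANTCA, 9.56% TTGCNNAA and 12.4% TATAAA. Of the other members, Il1a held TATAAA and TGANTCA, Tnf held TATAAA at -29 to -24, and 1 of the 2 Nlrp3 windows held a kB match. Il18 held TATAAA only on the opposite strand, at -175 to -170. These matches describe letters and not bound sites.

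In the IL-1 family, Il1b encodes the secreted form that needs caspase-1, and Il1a a form that is active without that cut and acts as an alarm signal. Il1b (ENSMUSG00000027398, GRCm38 chr2:129364570-129371139, minus strand) was counted 16262 to 56410 times per library. Its level was 1645, 848 and 819 CPM in WT pools 1 to 3 and 2155, 785 and 1034 CPM in KO pools 1 to 3. The pools numbered 1 were high in both genotypes, and the other 4 pools overlapped. KO minus WT was 0.26 on the log2 scale (SE 0.42; adjusted p = 0.809, edgeR), with a 95% interval of -0.72 to 1.25, so neither a moderate rise nor a moderate fall could be detected at this spread. Without KO pool 1 the sign turned, to -0.28.

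Il1a (ENSMUSG00000027399, chr2:129299610-129309972, minus strand) lies next to Il1b, yet its pools were ordered differently. It was at 94.6, 58.4 and 79.8 CPM in WT and 68.5, 49.5 and 79.9 CPM in KO. KO pool 1, the highest for Il1b, was in the middle of the KO pools for Il1a. Its difference of -0.24 on the log2 scale (SE 0.22) did not pass (adjusted p = 0.66, edgeR). Of its exons, 222 bases also lie in Gm14023, a transcript on the opposite strand.

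Il18 encodes the other cytokine that caspase-1 releases, and is made at a steady level in resting macrophages. It (ENSMUSG00000039217, chr9:50554827-50581840, plus strand) was at 12.1, 8.24 and 8.33 CPM in WT and 13.5, 13.9 and 11.7 CPM in KO. The KO pools were close together and only WT pool 1 reached their range. The KO mean was 1.37 times the WT mean, or 0.45 on the log2 scale (SE 0.20, edgeR adjusted p = 0.334). Without WT pool 1 the difference was 0.66 (edgeR adjusted p = 0.059). Over 15 other fits the adjusted p ranged from that value to 0.674, and the sign was positive in each. Macrophage markers moved in the same direction: the fold changes of 13 of 13 resident macrophage genes were positive (median 0.43 on the log2 scale; 0 called, or 7 called higher without WT pool 1, where 2.33% of all genes were), and their summed level was 14890, 8125 and 10000 CPM in WT and 14730, 14700 and 15530 CPM in KO. The part of these markers in the Il18 values was not tested.

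In the IL-6 family, Il6 signals through the shared receptor chain gp130 and drives the acute-phase response, and fibroblasts and vessel cells make it as well as macrophages. Il6 (ENSMUSG00000025746, chr5:30013114-30019981, plus strand) was at 117, 109 and 134 CPM in WT and 120, 69.6 and 71.9 CPM in KO. KO pools 2 and 3 lay below every WT pool, while KO pool 1 lay among them. The fitted difference was -0.46 on the log2 scale (SE 0.22; adjusted p = 0.363, edgeR), with a 95% interval of -0.96 to 0.04. Il6 passed as lower in an added fit without both libraries numbered 1 (-0.81, edgeR adjusted p = 0.0481), in which 2.18% of genes were called lower and 0.4% higher. Over all 15 other fits the adjusted p ranged from that value to 0.69. Fibroblast markers summed to 4607, 9650 and 14980 CPM in WT and 5463, 4778 and 3971 CPM in KO, and the part of these markers in the Il6 values was not tested.

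Osm encodes oncostatin M, a cytokine of macrophages and neutrophils that acts on fibroblasts and heart muscle cells. Osm (ENSMUSG00000058755, chr11:4236420-4241026, plus strand) was at 207, 93.6 and 91.7 CPM in WT and 246, 114 and 128 CPM in KO. As for Il1b, the pools numbered 1 of both genotypes lay well above the remaining pools. KO exceeded WT by 0.32 on the log2 scale (SE 0.39; adjusted p = 0.752, edgeR), a value that was -0.11 without KO pool 1. Its receptor chain Osmr, which is made mainly by stromal cells, had a lower level in every KO pool, as for 10.1% of all genes. Osmr was at 71.4, 78.2 and 99.5 CPM in WT and 49.3, 29.1 and 58.7 CPM in KO (-0.86 on the log2 scale, SE 0.25, edgeR adjusted p = 0.223).

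Il12b encodes the p40 chain shared by IL-12 and IL-23, a product of activated dendritic cells and macrophages. Il12b (ENSMUSG00000004296, chr11:44400063-44414033, plus strand) was counted only 43 to 132 times per library. It was at 2.00, 2.45 and 2.00 CPM in WT and 3.29, 4.91 and 5.12 CPM in KO. Every KO pool lay above every WT pool, as for 9.59% of all genes, and the KO mean was 2.06 times the WT mean. On the log2 scale this was 1.05 (SE 0.27), which missed the threshold (edgeR adjusted p = 0.193), at place 365 of 15707 by p-value. DESeq2 called it higher (1.05, DESeq2 adjusted p = 0.0274), where 1.13% of genes were called higher. Over 14 other fits the adjusted p ranged from that value to 0.571, and the sign was positive in each. With 3 pools a side, 0.1 is the smallest p of an exact permutation test (two-sided); Il12b and Nos2 reached it.

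The partner chains of p40 were scarce. Il12a, the p35 chain of IL-12, was at 0.808, 0.417 and 0.792 CPM in WT and 0.802, 1.45 and 1.13 CPM in KO. Il23a, the p19 chain of IL-23, was at 0.231, 0.156 and 0.605 CPM in WT and 1.30, 0.511 and 0.776 CPM in KO. Both sets of pools overlapped. Dendritic cell markers were also on the higher side in KO, with 8 of 11 positive, a median log2 fold change of 0.45 and 5 whose KO pools all exceeded the WT pools (9.59% of all genes). Their summed level was 460, 373 and 362 CPM in WT and 465, 530 and 592 CPM in KO. The fold changes of 3 of these markers were negative. Ccr7, the receptor of migrating dendritic cells, was picked from the list after its values were seen. It had 0.97 (SE 0.16, edgeR adjusted p = 0.148). The part of these markers in the Il12b values was not tested.

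Tnf encodes the cytokine that macrophages release first after activation. Tnf (ENSMUSG00000024401, chr17:35199381-35202007, minus strand) was at 310, 190 and 301 CPM in WT and 287, 191 and 225 CPM in KO. The lowest pool of each genotype was the pool numbered 2, at nearly the same level, so the genotypes overlapped. WT pools 1 and 3 lay above KO pools 1 and 3. The fitted log2 difference was -0.19 (SE 0.23; adjusted p = 0.743, edgeR), with an interval of -0.71 to 0.33.

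Among the effectors, Nlrp3, the sensor of the inflammasome, had the fold change nearest to 0. Nlrp3 (ENSMUSG00000032691, chr11:59541568-59566956, plus strand) was at 580, 312 and 473 CPM in WT and 531, 328 and 455 CPM in KO. Each genotype spanned nearly the same range. Its log2 difference was -0.05 (SE 0.26; adjusted p = 0.943, edgeR), with an interval of -0.66 to 0.55, and its sign turned without WT pool 1 (0.16) or KO pool 2 (0.12).

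Nos2 encodes the inducible nitric oxide synthase, a marker of classically activated macrophages. Nos2 (ENSMUSG00000020826, chr11:78920787-78960254, plus strand) was counted 105 to 526 times per library. It was at 13.4, 14.02 and 24.5 CPM in WT and 4.01, 7.74 and 9.71 CPM in KO. All 3 KO pools were lower than all 3 WT pools, as for 10.1% of all genes, and the KO mean was 41.3% of the WT mean. The log2 difference of -1.28 (SE 0.36) missed the threshold (edgeR adjusted p = 0.217), at place 581 of 15707 by p-value. DESeq2 called Nos2 lower (-1.27, DESeq2 adjusted p = 0.0133), where 4.39% of genes were called lower. So did edgeR without the filter on low counts (-1.27, edgeR adjusted p = 0.0148), where 2.22% were. Over 15 other fits the adjusted p of Nos2 ranged from 0.0133 to 0.571 and the sign was negative in each. The lowest pool, KO pool 1, had few Nos2 reads but the highest Il1b and Ptgs2 CPM. Each of 11 endothelial markers was lower in every KO pool than in any WT pool. EdgeR called 0 of them with the filter, and the 2 fits that called Nos2 called all 11. The summed endothelial level was 2529, 2763 and 4166 CPM in WT and 1370, 1429 and 1847 CPM in KO. The part of these markers in the Nos2 values was not tested.

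Ptgs2 encodes the inducible cyclooxygenase, which macrophages, neutrophils and stromal cells make on activation. Ptgs2 (ENSMUSG00000032487, chr1:150100031-150108227, plus strand) was at 315, 258 and 240 CPM in WT and 474, 231 and 176 CPM in KO. The highest and the lowest of the 6 pools were both KO pools. The log2 difference was 0.12 (SE 0.34; adjusted p = 0.901, edgeR), and without KO pool 1 it was -0.41. The KO coefficient of variation was 53.9%, against 14.5% in WT and a median of 12.7% over all genes in KO.

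**Figure D2:**
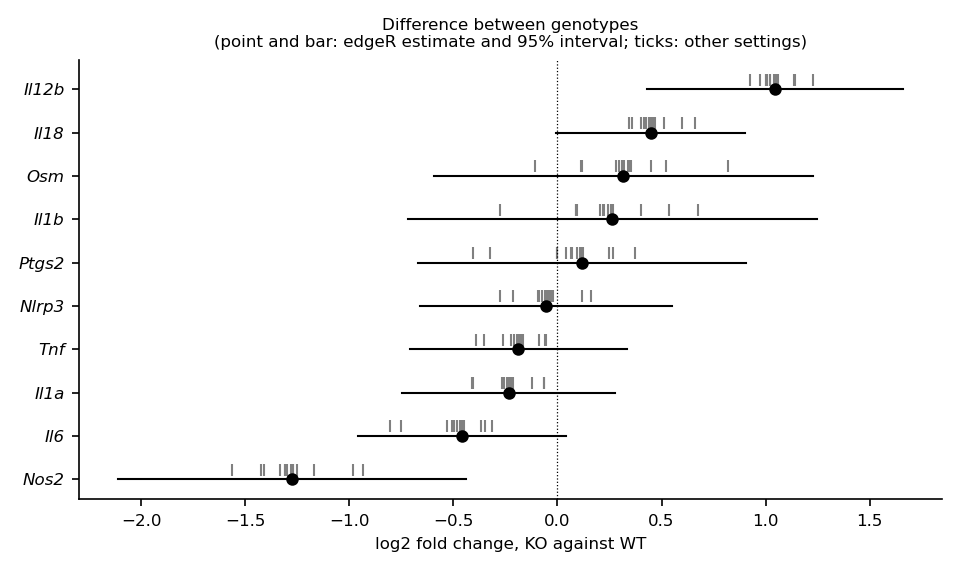
Log2 fold change of each gene, KO against WT, from edgeR (points) with its 95% interval (bars), and the estimates under other settings (grey ticks). The intervals of Il12b and Nos2 lie on one side of 0, unadjusted for the number of genes tested, and the ticks of Il1b, Osm, Nlrp3 and Ptgs2 fall on both sides.

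Position on the chromosome was noted because the floxed gene lies on chromosome 11. Of the 10 genes 4 lie there too, Osm 12.6, Il12b 27.6, Nlrp3 42.7 and Nos2 62.1 Mb from Egfr (midpoint to midpoint). Their log2 fold changes were 0.32, 1.05, -0.05 and -1.28, and the part of position in these values was not tested.

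The spread between pools had a pattern of its own. WT pool 1 and KO pool 1 were the 2 highest of the 6 pools for 4 of the 10 genes, Il1b, Osm, Ptgs2 and Nlrp3, against 7.26% of all genes tested. This pattern was noticed in the values and is given as a description. Some neutrophil markers were high in the same pools. S100a9, a calcium-binding protein of neutrophils, was at 769, 328 and 173 CPM in WT and 1003, 205 and 226 CPM in KO. Csf3r, the receptor for the neutrophil growth factor G-CSF, was at 425, 239 and 181 CPM in WT and 662, 207 and 216 CPM in KO. Ngp, Camp and Ltf of the same list were high in WT pool 1 but not in KO pool 1. Camp was at 38.9, 17.5 and 2.28 CPM in WT and 3.93, 2.48 and 5.12 CPM in KO. The summed level of the 13 neutrophil markers was 2495, 1241 and 663 CPM in WT and 3053, 838 and 872 CPM in KO. The precursor granule genes Mpo and Elane were near 0, at 0 to 3.27 CPM and 0 to 1.42 CPM. Immediate early genes, which rise during cell dissociation, summed to 28470, 22100 and 31300 CPM in WT and 33320, 27990 and 26880 CPM in KO. Their mean log2 CPM was lowest in WT pool 2 (10.18) and highest in KO pool 1 (10.93). The part of neutrophil markers or of immediate early genes in the Il1b, Osm and Ptgs2 values was not tested.

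**Figure D3:**
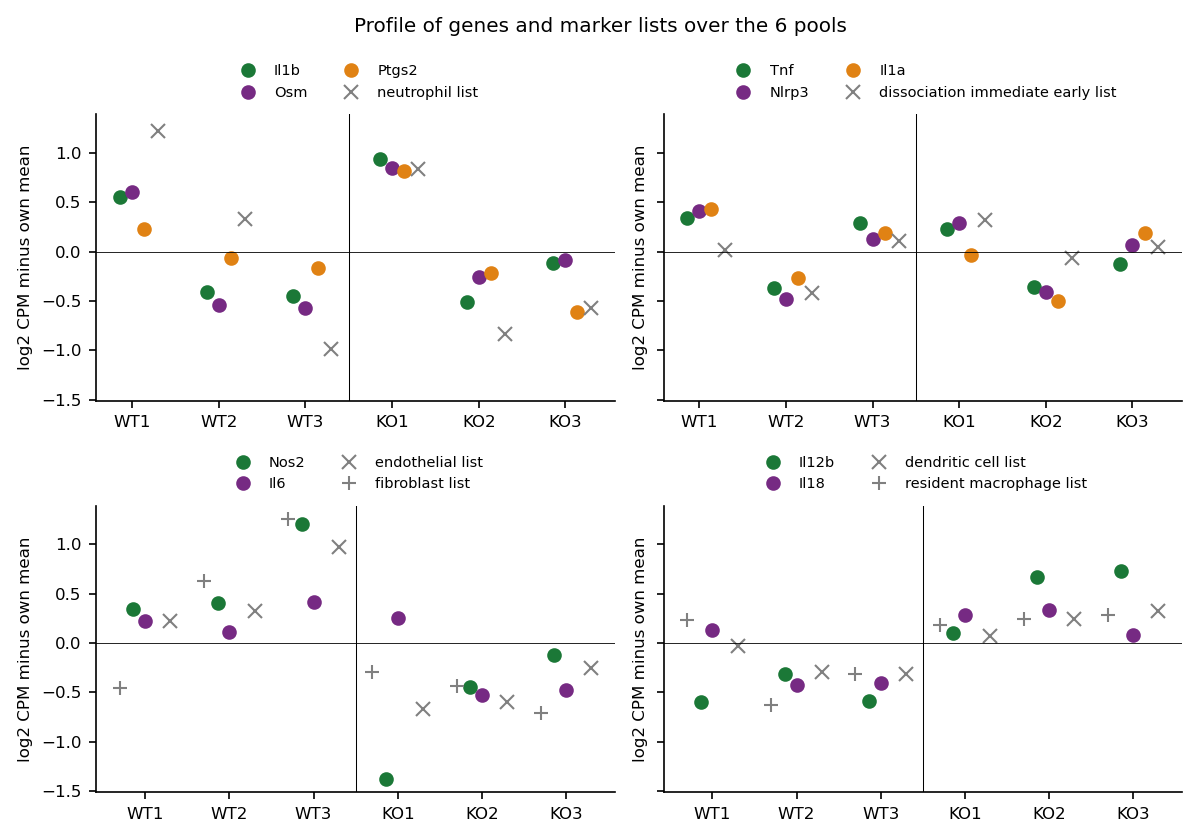
Log2 CPM of each gene minus its own mean over the 6 pools (colored points), with the mean of marker lists on the same scale (grey signs), by pool. Il1b, Osm, Ptgs2 and the neutrophil list are highest in WT1 and KO1, while Nos2 and the endothelial list are higher in WT, and Il12b and the dendritic cell list higher in KO.

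Likeness between profiles was measured as the root mean square (RMS) difference of log2 CPM over the 6 pools after each gene's own mean was subtracted. Among the 45 pairs of members the median was 0.477. The closest pairs were Tnf with Nlrp3 (0.123) and Il1b with Osm (0.137), and Il1a was near both Nlrp3 (0.173) and Tnf (0.189). Tnf, Nlrp3 and Il1a were each lowest in pool 2 of either genotype, and Il1b and Osm highest in pool 1.

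Outside the list, the genes closest to Il1b among 12881 candidates were Adam8 (0.09), a metalloprotease of leukocytes, and Rhov (0.131). Adam8 (0.118) and the calcium channel Trpm2 (0.117) were closest to Osm. For Ptgs2 they were Sfxn5 (0.137) and Thbs1 (0.148), which encodes thrombospondin 1, and for Tnf Csrnp1 (0.075) and Smcr8 (0.095). For Nlrp3 they were Sdc4 (0.093), a cell-surface proteoglycan, and the metallothionein Mt1 (0.096). Ndufb2 (0.051) and Sema6b (0.057) were closest to Il1a, and Ifi205 (0.062) and Epha1 (0.071) to Il6. Closest to Nos2 were Slc26a10 (0.117) and Prkd1 (0.156), and closest to Il12b were the pseudogene Rpl9-ps6 (0.178), whose reads can be shared with its parent gene, and Wdfy1 (0.188). The values nearest to Il18 were those of Dok3 (0.034), an adaptor of myeloid cells, and Bco2 (0.037). Bco2 overlaps Il18 on the opposite strand with 0 shared exon bases, and since the strand setting of the counts is not given, reads from the pair cannot be fully told apart. Over all candidates the median difference was 0.348 to 0.831, depending on the member. With 6 pools and many candidates some close profiles are found for any gene.

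The genes around the 10 were read from lists of receptors, inhibitors and signalling proteins. Of 122 tested genes in 10 lists, 0 passed in edgeR in either direction, beside 0.0127% of all genes. Counts at an unadjusted p below 0.05 and medians are therefore given as description. Of all 15707 genes tested, 4.77% were higher and 10.6% lower at that p. Over the same genes 7979 fold changes were positive, and the median was 0.0072. Ligand traps and receptors of IL-1 and IL-18 had a median of -0.17 over 10 genes, 1 higher and 3 lower. Il1r1, the signalling receptor of IL-1 on stromal and other cells, was lower in every KO pool, with 27.9, 40.9 and 49.2 CPM in WT and 26.9, 20.6 and 23.3 CPM in KO (-0.74, SE 0.21, edgeR adjusted p = 0.221). Il18bp, the soluble inhibitor of IL-18, was higher in every KO pool. It was at 6.93, 5.16 and 5.40 CPM in WT and 7.60, 9.51 and 10.2 CPM in KO (0.64, SE 0.20, edgeR adjusted p = 0.233). Over all genes, every KO pool lay above every WT pool for 9.59% and below for 10.1%.

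The median of 15 inflammasome genes was 0.30, 13 of them positive, with 3 higher and 0 lower at an unadjusted p below 0.05. Pycard, the adaptor ASC, was at 29.7, 24.5 and 22.2 CPM in WT and 32.2, 45.4 and 33.7 CPM in KO (0.54, edgeR adjusted p = 0.235). Casp1, the protease that cuts IL-1 beta and IL-18, was at 57.0, 36.8 and 39.8 CPM in WT and 54.1, 65.1 and 66.7 CPM in KO (0.47, edgeR adjusted p = 0.278). WT pool 1 was level with the KO pools for Casp1. Without WT pool 1, 3 inflammasome genes were called higher, where 2.33% of all genes were, and 5.97% lower.

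For prostaglandin and leukotriene synthesis the 15 genes had a median of 0.29, with 3 higher and 0 lower at an unadjusted p below 0.05. Ptges3, a prostaglandin E synthase and chaperone partner, was at 62.3, 54.5 and 57.7 CPM in WT and 85.0, 72.2 and 80.6 CPM in KO (0.45, edgeR adjusted p = 0.189). Ltc4s, leukotriene C4 synthase, was at 62.5, 28.8 and 44.4 CPM in WT and 69.9, 81.1 and 72.8 CPM in KO (0.72, edgeR adjusted p = 0.248). Both were higher in every KO pool than in any WT pool, as were 3 of the 15 genes and 9.59% of all genes. Both were named for having the smallest p of the list. Without WT pool 1, 5 genes of this list were called higher, where 2.33% of all genes were. Positive values were found for 12 of the 15.

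For arginine and nitric oxide metabolism the median was -0.17 over 9 genes, 1 higher and 2 lower at an unadjusted p below 0.05. Nos3, the nitric oxide synthase of endothelial cells, was at 107, 114 and 176 CPM in WT and 62.3, 54.6 and 96.9 CPM in KO (-0.89, edgeR adjusted p = 0.226). Odc1, which makes polyamines from ornithine, was at 327, 260 and 338 CPM in WT and 221, 225 and 226 CPM in KO (-0.46, edgeR adjusted p = 0.223). Arg1, the arginase that competes with Nos2 for arginine, was scarce, at 0.505 to 2.29 CPM.

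The IL-6 family list had a median of 0.03 over 14 genes, 0 higher and 3 lower at an unadjusted p below 0.05. Beside Osmr above, Il6st, which encodes gp130, was at 324, 345 and 397 CPM in WT and 274, 237 and 291 CPM in KO (-0.41, edgeR adjusted p = 0.246). The IL-12 family median was 0.33 over 8 genes, with 1 higher and 0 lower at an unadjusted p below 0.05. Il27 was at 1.89, 1.199 and 1.96 CPM in WT and 2.75, 3.65 and 2.29 CPM in KO (0.78, edgeR adjusted p = 0.305), and Ebi3, its partner chain, had 0.25 (edgeR adjusted p = 0.536). Ifng and Il23r did not pass the filter on low counts.

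NF-kB subunits, inhibitors and feedback genes (18 tested, 16 positive) had a median of 0.15, with 0 at an unadjusted p below 0.05 and 0 whose genotypes did not overlap. The kinase Ikbkb had 0.19 (edgeR adjusted p = 0.474) and the inhibitor Nfkbie 0.36 (edgeR adjusted p = 0.48). The list of TLR and IL-1 receptor signalling (13 tested, 9 positive) had a median of 0.09, with the adaptor Ticam2 at 0.35 (edgeR adjusted p = 0.363) and the kinase Irak4 at 0.30 (edgeR adjusted p = 0.478). TNF processing and receptors had 0.19 over 12 genes, 11 positive, with Ltb at 0.64 (edgeR adjusted p = 0.36) and Lta at 0.77 (edgeR adjusted p = 0.367), both cytokines of lymphocytes. Neither of these lists had a gene at an unadjusted p below 0.05. Inhibitory cytokines and their receptors had 0.15 over 8 genes, with the IL-10 receptor chains Il10rb at 0.39 (edgeR adjusted p = 0.267) and Il10ra at 0.43 (edgeR adjusted p = 0.318), and 2 higher at that threshold. Il10 itself was at 32.3, 21.5 and 27.2 CPM in WT and 37.8, 21.5 and 30.2 CPM in KO.

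**Figure D4:**
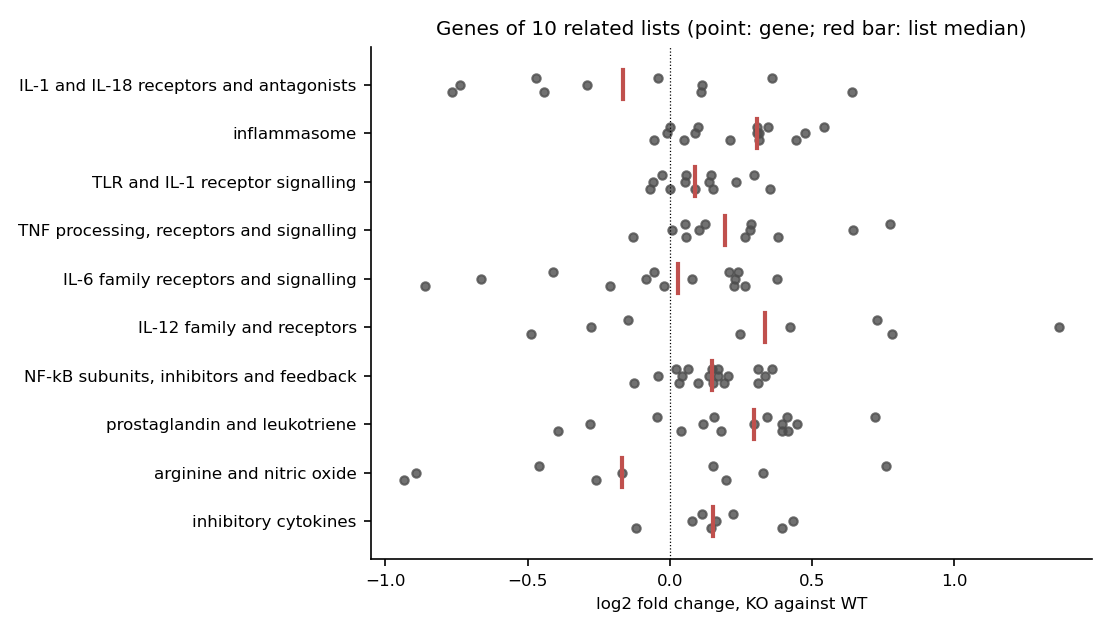
Log2 fold change, KO against WT, of each tested gene in 10 lists of related genes (points), with the list median (red bars). List medians run from -0.17 to 0.33, and most genes of the inflammasome, TNF, NF-kB and prostaglandin lists lie above 0.

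Ligands were also set against their soluble inhibitors within each library, which needs no scaling between libraries. Il1b had 7.52, 6.47 and 5.73 reads per read of Il1rn, the IL-1 receptor antagonist, in WT and 9.85, 8.68 and 6.08 in KO. The pools overlapped, and the log2 ratio was higher in KO by 0.30 (exact permutation p = 0.3, two-sided; 0.5 adjusted over the 2 ratios). Il18 had 1.75, 1.60 and 1.54 reads per read of Il18bp in WT and 1.78, 1.47 and 1.15 in KO, a difference of -0.17 in the log2 ratio (exact permutation p = 0.5; 0.5 adjusted).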

How the data were processed

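The deposited values are raw read counts per Ensembl gene, 1 table per library, which the authors had not normalized. The submitters' processing notes name STAR, HTSeq, DESeq2 and the mouse build GRCm38. Settings, strand included, are not given here by any source. Libraries were made with a directional kit, per the labels' protocols. The closing counters that name no gene (5.90% to 8.62% of reads outside genes, 1.49% to 1.72% ambiguous, 7.58% to 8.67% not unique) were left out. Symbols were matched for 55141 of 55487 identifiers. Coordinates and exon lengths are from GENCODE M21 and promoters from RefSeq (GRCm38.p6).

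KO was compared with WT with edgeR 4.0.16 (R 4.3.3): filterByExpr with a minimum count of 10, TMM, quasi-likelihood F test, two-sided, adjusted by Benjamini-Hochberg over 15707 genes at 0.05. SE is the size of the log2 fold change over the square root of F, and ± is the SD over 3 pools. Other fits used DESeq2 1.42.0, limma-voom (limma 3.58.1), other scalings and filters, a replicate block, and fewer libraries. In a test on simulated data of KO against WT (15425 genes), edgeR called 53 of 99 genes changed 2-fold, 77 of 93 changed 4-fold and 11 unchanged genes. The simulated counts were drawn gene by gene, with no shift shared by many genes of a pool. These shares may therefore not hold for the real pools. Same-group pools differed beyond sampling noise (chi-square per degree of freedom 38 to 84.1). Of each pathway list the 2 genes with the smallest p are named, given a mean CPM of 1 or more, besides all members and, for each, the 2 genes of most similar profile; others named were chosen after their values were seen. Members and lists were chosen with earlier results of these data known. Figures were drawn with matplotlib 3.10.9.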

Additional observations from a re-analysis of the deposited data

How the results depend on the processing

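Of 149 values of the 10 genes under 15 other fits, 137 kept their sign and their side of the threshold. Il12b, with a mean CPM below 5, had no value under the stricter filter. DESeq2 called 1 member higher (Il12b, 1.05) and 1 lower (Nos2, -1.27), among 170 genes higher and 661 lower. Without the filter on low counts edgeR called 1 member lower (Nos2, -1.27), among 139 genes higher and 643 lower. Limma-voom called 1 gene lower, and Ptgs2 had -6e-04 there. With the replicate block, edgeR called 2 genes higher, 1 lower and no member, and Ptgs2 had -0.0043. Over all genes, same-numbered pools did not deviate together (correlations of 0.097, -0.16 and 0.006). Such values cannot show whether the numbers pair the pools for single genes. With the block the SE went from 0.42 to 0.16 for Il1b and from 0.27 to 0.26 for Il12b. Without both libraries numbered 1, a fit chosen after seeing the data, 63 genes were higher and 344 lower, 1 member was lower (Il6, -0.81), and Ptgs2 had -0.32.

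Leaving out 1 library at a time gave 0 to 376 genes higher and 1 to 962 lower, both most without WT pool 1, and 0 members in either direction. The log2 fold changes then ranged from -0.28 to 0.67 for Il1b, -0.11 to 0.82 for Osm, -0.27 to 0.16 for Nlrp3 and -0.41 to 0.37 for Ptgs2. In the lists of IL-1 and IL-18 receptors, IL-6 family and prostaglandin genes DESeq2 called 1 gene each, and 2 in the arginine list. Of all genes DESeq2 called 5.51% in either direction. Without the filter edgeR called 1 each in the receptor, IL-6 family and arginine lists, where 2.7% of all genes were called. Without both libraries numbered 1 it called 1 in the receptor list, where 2.58% of all genes were called. Leaving out 1 library gave 0 to 1 receptor genes, 0 to 3 inflammasome genes, 0 to 1 IL-6 family genes, 0 to 5 prostaglandin genes and 0 to 2 inhibitory cytokine genes. The largest of each came without WT pool 1, where 8.3% of all genes were called. The causes were not tested. Il12b rests on the fewest reads of the 10 (43 to 132 per library). With 3 pools a group, the 95% intervals of Il18 (-0.0081 to 0.90) and Il6 (-0.96 to 0.04) included 0.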

Other observations

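Other genes of the same systems were high in the pools numbered 1. These were picked after their values were seen and are given as values. Il1r2, the decoy receptor of IL-1, was at 135, 76.7 and 62.4 CPM in WT and 209, 54.8 and 88.4 CPM in KO. Arg2, the mitochondrial arginase, was at 15.2, 8.92 and 7.59 CPM in WT and 37.4, 7.19 and 9.08 CPM in KO. Hdc, which makes histamine, was at 207, 115 and 84.8 CPM in WT and 371, 72.4 and 107 CPM in KO; the mast cell gene Cpa3 was at 0.272 to 1.15 CPM, too few reads to read a pattern from. The granule genes Ltf and Ngp did not follow Il1b: Ltf was at 160, 91.6 and 18.6 CPM in WT and 21.01, 14.3 and 25.7 CPM in KO, high in WT pool 1 and not in KO pool 1.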
